A study of Arabidopsis thaliana with 18 samples.

Results

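The genes described here are 47 nuclear genes of the photosynthetic apparatus of Arabidopsis thaliana, out of 19858 genes in the authors' deposited RNA-seq table. They were chosen by gene identifier and by what they encode, and all 47 were found in the table. The set holds 20 genes for light-harvesting antenna proteins (LHCA and LHCB), 12 for subunits of photosystem I (PSA), 10 for subunits of photosystem II (PSB) and 5 for Rubisco (4 small-subunit genes, RBCS, and the Rubisco activase gene RCA). The study compared pold2 mutant seedlings with wild type (WT). POLD2 encodes the second subunit of DNA polymerase delta, which copies the genome. The samples of each genotype were whole seedlings of ecotype C24, 10 days old, untreated and grown at 22°C under 23 h of daily light on plates with sucrose. The labels do not describe the pold2 allele. RNA was sequenced in 3 libraries of pold2 and 3 of WT, and the table gives 1 pooled FPKM value (fragments scaled to transcript length and library size) for each genotype. Because FPKM is scaled for length, levels can be set beside each other between genes. Histone marks were available as peak lists of WT only.

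Plants capture light with antenna proteins that carry chlorophyll and pass the energy to photosystem I or photosystem II. Photosystem II splits water, photosystem I reduces ferredoxin, and Rubisco fixes carbon dioxide with the energy gained. The chloroplast genome encodes the reaction-centre cores and the large subunit of Rubisco. The nuclear genes described here supply the antenna, the peripheral photosystem subunits and the small subunit of Rubisco, and they are among the most strongly expressed genes of green tissue.

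Most genes of the antenna and the photosystems had less transcript in pold2, and those of Rubisco did not pass the test. A gene was called where the authors' q, their p-value adjusted over all 19858 genes, was under 0.05. Of the 47 genes, 31 fell, 1 rose and 15 were not called in the authors' deposited table. Among all genes, 6.47% were called lower and 5.97% higher by the authors' deposited table. The antenna had 16 of 20 genes called lower, photosystem I had 11 of 12, photosystem II had 4 of 10 and Rubisco had 0 of 5. The median log2 ratio of pold2 over WT was -0.45 for the antenna, -0.38 for photosystem I, -0.31 for photosystem II and 0.05 for Rubisco, and -0.01 for all genes of the authors' deposited table. The changes were modest in size, from 1.24-fold to 1.90-fold lower among the genes that fell.

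No spread between libraries can be given, because each genotype has 1 pooled value per gene and the read depth is unknown. Whether the 3 libraries of a genotype are separate cultures is not given in the labels, and the authors' q may measure technical spread alone. Genes are not replicates of a genotype, so the difference between the antenna, the photosystems and Rubisco was described and not tested. In whole seedlings, fewer green cells and less transcript per cell cannot be told apart. The mutated gene itself, POLD2 (AT2G42120), stood at 2.83 FPKM in pold2 and 7.21 FPKM in WT in the authors' deposited table (q = 0.00103).

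**Figure D1:**
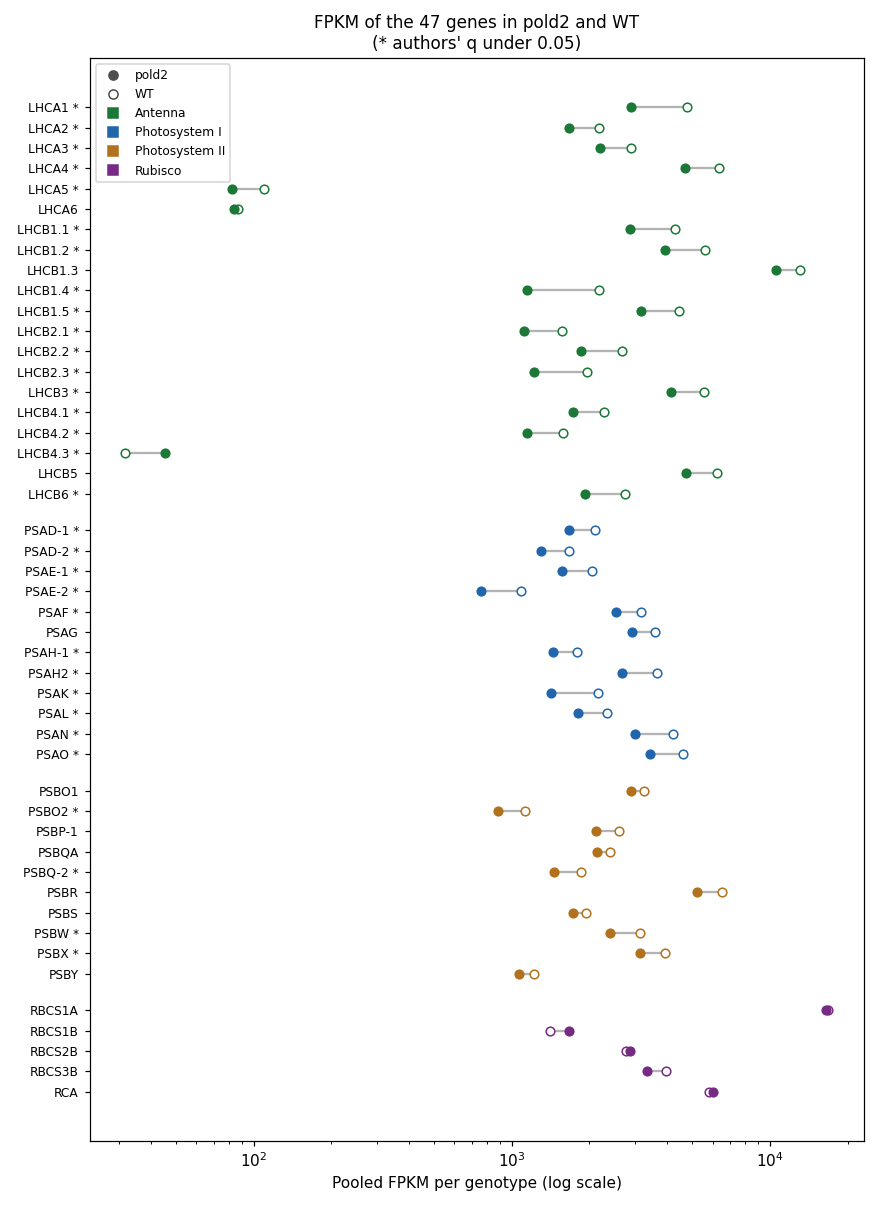
Pooled FPKM of each of the 47 genes on a log axis, with pold2 as filled points and WT as open points, coloured by group. Nearly all antenna and photosystem points lie further left in pold2, LHCB4.3 lies further right, and RBCS1A is at 16515 FPKM in pold2 and 16839 FPKM in WT.

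The antenna of photosystem I is built from LHCA proteins. Its 6 genes differ widely in level. LHCA1 (AT3G54890, chromosome 3, 20339504 to 20341103, TAIR10) fell to 2906 FPKM in pold2, against 4782 FPKM in WT, a 1.65-fold difference (q = 0.00103 in the authors' deposited table). LHCA4 (AT3G47470), which pairs with LHCA1 in the antenna, was at 4689 FPKM in pold2 and 6359 FPKM in WT (1.36-fold lower, q = 0.0334 in the authors' deposited table). The other pair, LHCA2 (AT3G61470) and LHCA3 (AT1G61520), fell by a similar factor. LHCA2 was at 1667 FPKM in pold2 and 2179.6 FPKM in WT, and LHCA3 at 2207 FPKM in pold2 and 2904 FPKM in WT. These are 1.31-fold and 1.32-fold lower, with q of 0.00882 and 0.00827 in the authors' deposited table. LHCA5 and LHCA6, minor proteins that link photosystem I to the NDH complex, are expressed far below the others. LHCA5 (AT1G45474) fell to 82.2 FPKM in pold2, against 109.8 FPKM in WT (q = 0.00103 in the authors' deposited table). LHCA6 (AT1G19150) was not called, at 83.9 FPKM in pold2 and 87.3 FPKM in WT (q = 0.798 in that table).

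The major antenna of photosystem II is a trimer of LHCB1, LHCB2 and LHCB3 proteins. Of its 9 genes, 8 fell and 1 was not called in the authors' deposited table, with a median log2 ratio of -0.51. LHCB1 is encoded by 5 genes in tight clusters. LHCB1.1, LHCB1.2 and LHCB1.3 lie within 6.77 kb of chromosome 1 (10472280 to 10479048, TAIR10), and LHCB1.4 and LHCB1.5 within 7.36 kb of chromosome 2 (14518406 to 14525763). LHCB1.4 (AT2G34430) fell furthest of all 47 genes, to 1146 FPKM in pold2, against 2179.5 FPKM in WT (1.90-fold lower, q = 0.00103 in the authors' deposited table). Its neighbour LHCB1.5 (AT2G34420) was at 3172 FPKM in pold2 and 4432 FPKM in WT (log2 ratio -0.48, q = 0.00103 in the authors' deposited table). On chromosome 1, LHCB1.1 (AT1G29920) was at 2883 FPKM in pold2 and 4309 FPKM in WT, and LHCB1.2 (AT1G29910) at 3919.6 FPKM in pold2 and 5591 FPKM in WT. Both fell, with q of 0.00103 for LHCB1.1 and 0.00264 for LHCB1.2 in the authors' deposited table. LHCB1.3 (AT1G29930) held the highest level of any antenna gene, at 10552 FPKM in pold2 and 13034 FPKM in WT, and was not called (q = 0.298 in the authors' deposited table). Summed over the 5 genes, LHCB1 stood at 21673 FPKM in pold2 and 29544 FPKM in WT. LHCB1.3 made up 48.7% of that sum in pold2 and 44.1% in WT, and LHCB1.4 made up 5.29% in pold2 and 7.38% in WT.

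LHCB2, whose phosphorylation moves antenna between the photosystems, is encoded by 3 genes that all fell. LHCB2.1 (AT2G05100) was at 1118 FPKM in pold2 and 1572 FPKM in WT. LHCB2.2 (AT2G05070) was at 1861 FPKM in pold2 and 2673 FPKM in WT. LHCB2.3 (AT3G27690) was at 1215 FPKM in pold2 and 1948 FPKM in WT. These are 1.41-fold, 1.44-fold and 1.60-fold lower, each with q = 0.00103 in the authors' deposited table. LHCB3 (AT5G54270) fell to 4135 FPKM in pold2, against 5544 FPKM in WT (1.34-fold lower, q = 0.0243 in the authors' deposited table). Copies of LHCB1 or of LHCB2 are similar enough to share reads, so the split within each family is uncertain, and the sums over a family depend on it less. The summed FPKM of pold2 over WT had a log2 ratio of -0.45 for LHCB1 and -0.56 for LHCB2.

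The minor antenna proteins LHCB4, LHCB5 and LHCB6 connect the trimers to the photosystem II core. LHCB6 (AT1G15820) fell to 1916 FPKM in pold2, against 2748 FPKM in WT (1.43-fold lower, q = 0.00103 in the authors' deposited table). LHCB4.1 (AT5G01530) was at 1726 FPKM in pold2 and 2276 FPKM in WT, and LHCB4.2 (AT3G08940) at 1143 FPKM in pold2 and 1581 FPKM in WT. Both fell, with q of 0.00827 for LHCB4.1 and 0.00103 for LHCB4.2 in the authors' deposited table. LHCB5 (AT4G10340) lay just outside the threshold, at 4719.9 FPKM in pold2 and 6253 FPKM in WT (1.32-fold lower, q = 0.052 in the authors' deposited table).

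LHCB4.3 (AT2G40100, chromosome 2, 16745653 to 16747400, TAIR10), the third LHCB4 gene, was the only 1 of the 47 to rise. It stood at 45.5 FPKM in pold2 and 31.7 FPKM in WT, 1.44-fold higher (q = 0.00103 in the authors' deposited table). It had the lowest level of the set in each genotype, and made up 1.56% of the summed LHCB4 transcript in pold2 and 0.815% in WT. LHCB4.1 and LHCB4.2, its close relatives, moved in the opposite direction.

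**Figure D2:**
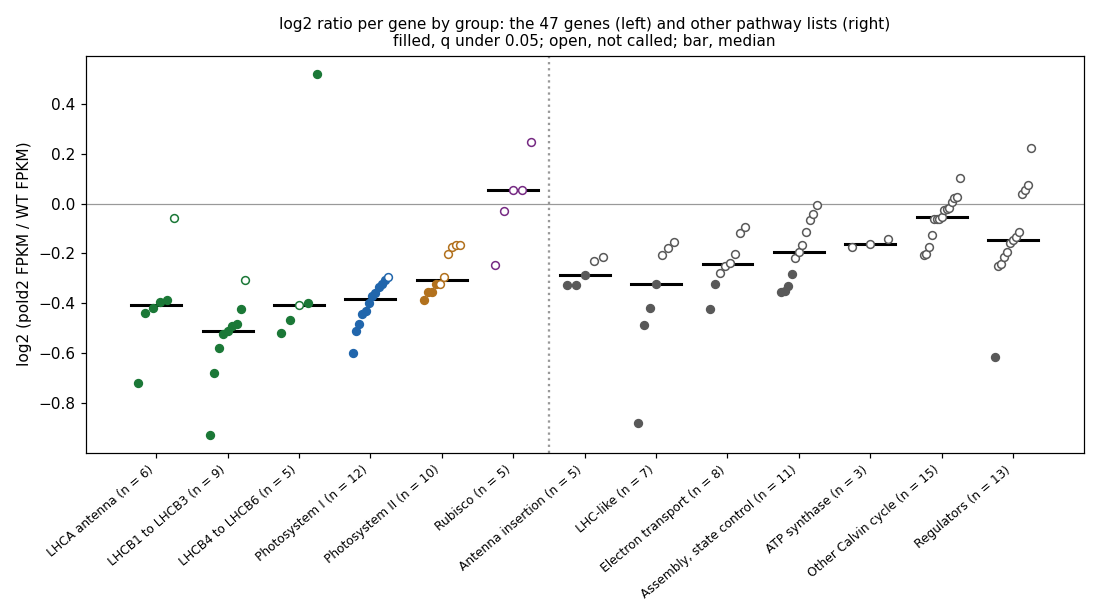
log2 ratio of pold2 over WT FPKM for each gene, grouped by role, with filled points for q under 0.05, open points for genes not called and bars for medians. On the left, the medians run from -0.51 for LHCB1 to LHCB3 to 0.05 for Rubisco. On the right, they run from -0.32 for the LHC-like genes to -0.05 for the other Calvin cycle genes.

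Photosystem I had the highest share of genes called lower of the 4 groups, with all 12 ratios below 0 and between -0.60 and -0.29 on the log2 scale. On its stromal side, PSAD and PSAE help dock ferredoxin, and each is encoded by a pair of genes. PSAD-1 (AT4G02770) was at 1671 FPKM in pold2 and 2106 FPKM in WT, and PSAD-2 (AT1G03130) at 1296 FPKM in pold2 and 1661 FPKM in WT. PSAE-1 (AT4G28750) was at 1560.2 FPKM in pold2 and 2054 FPKM in WT, and PSAE-2 (AT2G20260) at 761 FPKM in pold2 and 1085 FPKM in WT. All 4 fell, by 1.26-fold, 1.28-fold, 1.32-fold and 1.43-fold in that order, with the largest q at 0.0215 in the authors' deposited table. On the lumenal side, PSAN (AT5G64040) and PSAF (AT1G31330) take part in binding plastocyanin. PSAN fell to 3011 FPKM in pold2, against 4212 FPKM in WT (q = 0.00188 in the authors' deposited table). PSAF lay just inside the threshold, at 2534 FPKM in pold2 and 3171 FPKM in WT (1.25-fold lower, q = 0.0496 in the authors' deposited table).

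Among the membrane subunits of photosystem I, PSAK (AT1G30380, chromosome 1, 10722197 to 10723247, TAIR10), which contacts the LHCA antenna, fell furthest. It was at 1419 FPKM in pold2 and 2153 FPKM in WT, 1.52-fold lower (q = 0.00103 in the authors' deposited table). PSAH, PSAL and PSAO lie on the side of the complex where the mobile antenna docks, and their genes fell as well. PSAO (AT1G08380) was at 3424 FPKM in pold2 and 4613 FPKM in WT. PSAL (AT4G12800) was at 1813 FPKM in pold2 and 2343 FPKM in WT. PSAH2 (AT1G52230) was at 2679 FPKM in pold2 and 3641 FPKM in WT, and PSAH-1 (AT3G16140) at 1442 FPKM in pold2 and 1784 FPKM in WT. The folds were 1.35, 1.29, 1.36 and 1.24 lower, with q of 0.00103, 0.0129, 0.00103 and 0.031 in the authors' deposited table. PSAG (AT1G55670), which also contacts the antenna, was the single gene of the group that was not called, at 2920.3 FPKM in pold2 and 3577 FPKM in WT (q = 0.0723 in the authors' deposited table).

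Photosystem II had smaller ratios, all 10 below 0 and between -0.39 and -0.17 on the log2 scale. PSBO, PSBP, PSBQ and PSBR stabilise the water-splitting cluster on the lumenal side. PSBO2 (AT3G50820) fell to 881 FPKM in pold2, against 1127 FPKM in WT, and PSBQ-2 (AT4G05180) fell to 1453 FPKM in pold2, against 1859 FPKM in WT. Each was 1.28-fold lower, with q of 0.0133 and 0.0156 in the authors' deposited table. Their more abundant partners were not called. PSBO1 (AT5G66570) was at 2897 FPKM in pold2 and 3254 FPKM in WT (q = 0.452), and PSBQA (AT4G21280) at 2134 FPKM in pold2 and 2409.6 FPKM in WT (q = 0.343 in the authors' deposited table). PSBP-1 (AT1G06680) was at 2129.7 FPKM in pold2 and 2611 FPKM in WT (q = 0.0867 in that table). PSBR (AT1G79040), the most strongly expressed photosystem gene, was at 5203 FPKM in pold2 and 6505.5 FPKM in WT and also missed the threshold (q = 0.0673 in the authors' deposited table).

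Of the small intrinsic subunits, PSBW (AT2G30570) and PSBX (AT2G06520) fell, and PSBY (AT1G67740) was not called. PSBW was at 2406 FPKM in pold2 and 3145 FPKM in WT (1.31-fold lower, q = 0.00662 in the authors' deposited table). PSBX was at 3131 FPKM in pold2 and 3919 FPKM in WT (1.25-fold lower, q = 0.0331 in the authors' deposited table). PSBY was at 1064 FPKM in pold2 and 1225 FPKM in WT (q = 0.228 in that table). PSBS (AT1G44575), the sensor that switches the antenna to heat dissipation in excess light, was at 1720.3 FPKM in pold2 and 1932 FPKM in WT and was not called (q = 0.381 in the authors' deposited table).

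In the 5 pairs of photosystem genes that encode the same subunit, the less abundant copy had the lower ratio in 4 pairs. The log2 ratio was -0.35 for PSBO2 and -0.17 for PSBO1, -0.36 for PSBQ-2 and -0.18 for PSBQA, -0.51 for PSAE-2 and -0.40 for PSAE-1, and -0.36 for PSAD-2 and -0.33 for PSAD-1. PSAH ran the other way, at -0.31 for the less abundant PSAH-1 and -0.44 for PSAH2. The difference within a pair was not tested, and similar copies can share reads.

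The 5 Rubisco genes showed no common direction. RBCS1A (AT1G67090, chromosome 1, 25048158 to 25049424, TAIR10) had the highest FPKM of the whole table in each genotype, at 16515 FPKM in pold2 and 16839 FPKM in WT (log2 ratio -0.03, q = 0.979 in the authors' deposited table). The other 3 small-subunit genes lie within 8.08 kb of chromosome 5 (15377173 to 15385247). RBCS1B (AT5G38430) was at 1667 FPKM in pold2 and 1405 FPKM in WT (q = 0.117), and RBCS3B (AT5G38410) at 3340.0 FPKM in pold2 and 3958 FPKM in WT (q = 0.19 in the authors' deposited table). RBCS2B (AT5G38420), between them, was at 2868 FPKM in pold2 and 2765 FPKM in WT (q = 0.84 in the authors' deposited table). Similar RBCS copies can share reads, so the split between these genes, and their differing directions, are uncertain. Summed over the 4 genes, RBCS stood at 24390 FPKM in pold2 and 24967 FPKM in WT, a difference of -2.31%, and RBCS1A held 67.7% of it in pold2 and 67.4% in WT. RCA (AT2G39730), the chaperone that keeps Rubisco active, was at 6035 FPKM in pold2 and 5812 FPKM in WT (q = 0.902 in the authors' deposited table). With no error per gene, these values do not show that the Rubisco genes are equal in the genotypes.

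**Figure D3:**
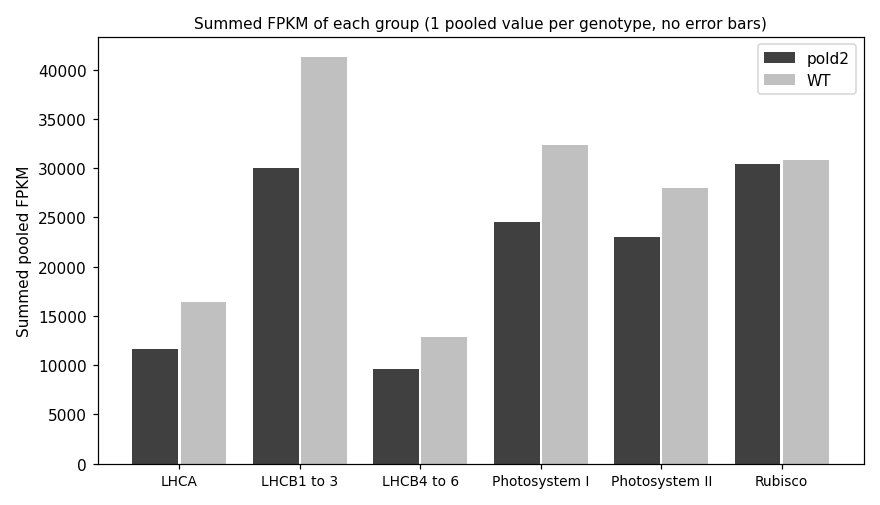
Summed pooled FPKM of each group in pold2 (dark) and WT (light), with no error bars because each genotype has 1 value. The LHCB1 to LHCB3 bars stand at 30002 FPKM in pold2 and 41282 FPKM in WT, and the Rubisco bars at 30425 FPKM in pold2 and 30779 FPKM in WT.

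As a share of all transcript, the 47 genes held 14.0% of the summed FPKM of the table in pold2 and 16.2% in WT. The antenna held 5.54% in pold2 and 7.09% in WT, photosystem I 2.65% in pold2 and 3.25% in WT, photosystem II 2.49% in pold2 and 2.81% in WT, and Rubisco 3.29% in pold2 and 3.09% in WT. The summed FPKM of pold2 differed from that of WT by -27.5% for the antenna, -24.3% for photosystem I, -17.7% for photosystem II and -1.15% for Rubisco. The sum over the whole table itself differed by -7.19%, and the sum over genes outside the set by -4.67%. Against that lower total, the share of Rubisco was higher in pold2 though its sum was not. Of the 50 most strongly expressed genes of the table, 28 belonged to the set in pold2 and 33 in WT.

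Stricter rules left mostly antenna and photosystem I genes. At a q under 0.01 in the authors' deposited table, 22 of the 47 genes were lower, against 3.86% of all genes, and 14 of these were antenna genes, 7 photosystem I genes and 1 a photosystem II gene. At an unadjusted p under 0.05, 36 were lower in that table, against 12.5% of all genes. With a fall of at least 1.5-fold required besides a q under 0.05, 4 genes were left (LHCB1.4, LHCA1, LHCB2.3 and PSAK), against 1.67% of all genes. The 15 genes that were not called ranged from -0.41 to 0.25 on the log2 scale in the authors' deposited table, with 12 of them below 0, so some lay further from 0 than genes that were called.

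Strongly expressed genes outside the set also leaned lower in pold2. The 65 other genes whose mean reached 1000 FPKM had a median log2 ratio of -0.14, with 9 called lower and 4 higher, and the 1365 genes between 100 and 1000 FPKM had a median of -0.11, of which 273 fell and 43 rose by the authors' deposited table. The 65 genes include 4 of electron transport, 1 of ATP synthase and 5 of the Calvin cycle, from the lists described below. They are therefore not a background free of photosynthetic genes. In the set itself, 43 of 47 genes reached a mean of 1000 FPKM. Set against the median of those 65 genes, the group medians were -0.31 for the antenna, -0.24 for photosystem I, -0.17 for photosystem II and 0.20 for Rubisco. The part of expression level in the result was not tested.

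**Figure D4:**
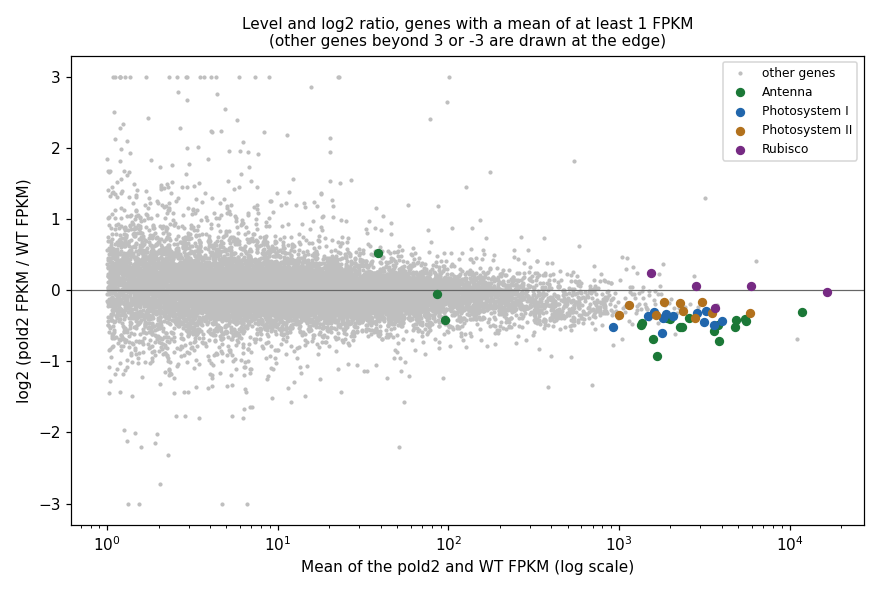
Mean FPKM (log axis) against log2 ratio of pold2 over WT for genes whose mean reached 1 FPKM, with other genes in grey and the 47 genes coloured by group. Most antenna and photosystem genes lie at the right, mostly below the other genes of that level, and the Rubisco genes lie around 0. LHCA5, LHCA6 and LHCB4.3 lie further left, with LHCB4.3 above 0.

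Other genes of the pathway were read from 7 lists. Beside their counts stand the shares over all genes, 6.47% called lower and 5.97% higher. Among genes outside the set with a mean from 100 to 1000 FPKM, 20% were called lower. Genes that insert antenna proteins into the thylakoid membrane were lower in 3 of 5 cases in the authors' deposited table, with a median log2 ratio of -0.29. They were CPFTSY (AT2G45770) and CPSRP54 (AT5G03940) of the chloroplast signal recognition particle pathway, each 1.25-fold lower, and LTD (AT1G50900), which hands antenna proteins to that pathway, 1.22-fold lower in the authors' deposited table. CPSRP54 was at 128.3 FPKM in pold2 and 160.7 FPKM in WT. Of 7 relatives of the antenna proteins, 4 fell in the authors' deposited table, among them the one-helix protein genes OHP (AT5G02120) at 455 FPKM in pold2 and 637 FPKM in WT and OHP2 (AT1G34000) at 189.9 FPKM in pold2 and 254 FPKM in WT. The other 2 were LIL3:1 (AT4G17600, 1.25-fold lower) and the light-stress gene ELIP1 (AT3G22840), at 4.41 FPKM in pold2 and 8.10 FPKM in WT in the authors' deposited table.

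Among 8 genes of photosynthetic electron transport, 2 fell in the authors' deposited table. That share, 25%, is near the 20% called lower among genes outside the set with a mean from 100 to 1000 FPKM. However, 4 of the 8 genes had a mean of at least 1000 FPKM. At that level, 13.8% of genes outside the set were called lower. PETE1 (AT1G76100), for a minor plastocyanin, was at 270.0 FPKM in pold2 and 362 FPKM in WT, and PETM (AT2G26500), for a small cytochrome b6f subunit, was at 1943 FPKM in pold2 and 2430.1 FPKM in WT. Of 11 genes for assembly, cyclic electron flow and state control, 4 fell in the authors' deposited table. They were PGR5 (AT2G05620, 1.28-fold lower) and PGRL1A (AT4G22890, 1.26-fold lower) of cyclic electron flow, PPL1 (AT3G55330, 1.22-fold lower), and PPL2 (AT2G39470, 1.28-fold lower), which is annotated as the NDH subunit gene PnsL1. By the authors' deposited table none of 3 ATP synthase genes was called, and ATPD (AT4G09650) stood at 1526 FPKM in pold2 and 1685 FPKM in WT and ATPC1 (AT4G04640) at 769 FPKM in pold2 and 868 FPKM in WT.

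By the authors' deposited table none of 15 other Calvin cycle genes was called, and their median log2 ratio was -0.05, with the lowest at -0.21 and the highest at 0.10. GAPA (AT3G26650), for a subunit of the chloroplast glyceraldehyde phosphate dehydrogenase, was at 1932 FPKM in pold2 and 2109 FPKM in WT (q = 0.587 in the authors' deposited table). CP12-1 (AT2G47400), which binds that enzyme in the dark, was at 1855 FPKM in pold2 and 2093 FPKM in WT (q = 0.296 in the authors' deposited table). RPE (AT5G61410) alone of the 15 had an unadjusted p under 0.05 in that table.

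Of 14 listed regulators of these genes, 13 had values and ABI4 had none. The authors' deposited table calls 1 of the 13, a share of 7.69% that is near the 6.47% called lower among all genes. CGA1 (AT4G26150), a GATA factor that promotes chloroplast development, fell to 4.34 FPKM in pold2, against 6.65 FPKM in WT (q = 0.00264 in the authors' deposited table). GLK1 (AT2G20570) and GLK2 (AT5G44190), which activate antenna and photosystem genes, were not called. GLK1 was at 70.2 FPKM in pold2 and 67.6 FPKM in WT, and GLK2 at 103.6 FPKM in pold2 and 123.1 FPKM in WT (q = 0.812 and 0.0791 in the authors' deposited table). GUN4 (AT3G59400), of chlorophyll synthesis and plastid signalling, was at 479.9 FPKM in pold2 and 519 FPKM in WT (q = 0.545 in the authors' deposited table).

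Markers of other tissues were read beside these values. Each list had 1 gene called lower, which is 8.33% of the root, 20% of the epidermis and guard cell and 16.7% of the senescence genes. Among all genes, 6.47% were called lower and 5.97% higher, so the root share is near that of all genes, and the other lists are short. Of 12 root markers, 1 rose (IRT1) and 1 fell (HKT1) in the authors' deposited table, and their median log2 ratio was -0.09. Most were low, with a median level of 2.78 FPKM in pold2 and 2.96 FPKM in WT. HKT1 was at 0.64 FPKM in pold2 and 1.24 FPKM in WT. The summed level of the 12 was 158.4 FPKM in pold2 and 127.5 FPKM in WT, most of it IRT1 at 111.5 FPKM in pold2 and 77.3 FPKM in WT. Of 5 epidermis and guard cell markers, 1 fell (KAT1) in the authors' deposited table, and the sum was 458 FPKM in pold2 and 515 FPKM in WT. Of 7 listed senescence genes, 6 had values and SAG12 had none. Of those 6, 1 fell (SEN1) in the authors' deposited table, and the sum was 222 FPKM in pold2 and 255 FPKM in WT. SEN1 alone was at 84.2 FPKM in pold2 and 119.6 FPKM in WT. Of the 6 senescence ratios, 4 were above 0 and 2 below, with a median log2 ratio of 0.05. The part of tissue composition in the lower photosynthetic transcripts was not tested.

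Some loci of the table join overlapping genes, and 7 of the 47 genes (LHCA4, LHCB1.5, LHCB3, LHCB4.2, LHCB6, PSAE-2 and PSBR) share a locus with another gene. The authors' deposited table calls none of the 7 neighbours, and their log2 ratios lay between -0.09 and 0.37. Among all genes, 6.47% were called lower and 5.97% higher, so a count of 0 in 7 genes is near that share. Their q lay between 0.922 and 0.996 in the authors' deposited table. The neighbours were at 8.35 to 44.0 FPKM in pold2 and 6.45 to 46.9 FPKM in WT, far below the photosynthetic genes beside them.

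In WT chromatin, the 47 genes carried the mark of active promoters. An H3K4me3 peak touched the locus or the 500 bp beside it for all 47, compared with 86.4% of all genes of the table and 62 of the 65 other genes whose mean reached 1000 FPKM. The mark covered the whole locus in 35 of the 47, in 31 of those 65 genes and in 1608 of the 19858 genes of the table. Whole cover depends on the length of the locus, which was not compared between these groups. The longest loci of the set, those of LHCA4 (8269 bp) and LHCB3 (8026 bp), were covered to 21.1% and 46.6%. Each of these loci joins a neighbouring gene, so the cover does not belong to LHCA4 or LHCB3 alone. The widest peak at each gene had a median length of 2134 bp over the set, 1434 bp over all genes with a peak, and 1807.5 bp over the strongly expressed genes outside the set. The longest, 5991 bp on chromosome 1 (5444131 to 5450121, TAIR10), lay over the locus that joins LHCB6 and AT1G15810. It ran past both ends of that locus (5444418 to 5447859), so its length does not belong to LHCB6 alone. A list stands for 1 library of WT, peaks have no replicates, and no peak list of pold2 was used here.

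H3K4me3 peak scores, which are the authors' own, were read within the list, and their difference between the groups was not tested. A score of exactly 3100 is shared by 2053 of the 15782 peaks and serves here as a mark of the strongest peaks. The best peak reached at least 3100 at 12 of 12 photosystem I genes, 9 of 10 photosystem II genes, 3 of 5 Rubisco genes and 9 of 20 antenna genes. The share was 45% for the antenna, near the 41.5% (27 of 65) of strongly expressed genes outside the set, and 18.8% for all genes. The lowest scores were at LHCB1.4 (330.2), the gene that fell furthest, and LHCB4.3 (539.7), the gene that rose, and these exceed 13.2% and 19.8% of the peaks in the list. LHCB2.3 (1450.2) and LHCB1.1 (1532) came next. Of the 11 antenna genes under 3100, 7 belong to LHCB1 or LHCB2, whose copies can share reads, and the part of shared reads in these scores was not tested.

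H3K27me3, the Polycomb mark of repressed genes, was rare on the set. Its peaks covered LHCB1.3 (chromosome 1, 10477871 to 10479598) and RBCS1B (chromosome 5, 15383305 to 15385367), which makes 2 of 47 genes, against 12 of the 65 strongly expressed genes outside the set and 15.3% of all genes of the table. Their scores of 96.7 and 62.8 lie below the median of the list, 227.9. LHCB1.3 and RBCS1B also carried H3K4me3, and neither was called in pold2 in the authors' deposited table. H3K9me2, a mark of silent heterochromatin, had a peak on 0 of the 47 loci and on 0.68% of all genes, so the count is near that share. It also had a peak on 0 of the 65 strongly expressed genes outside the set.

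**Figure D5:**
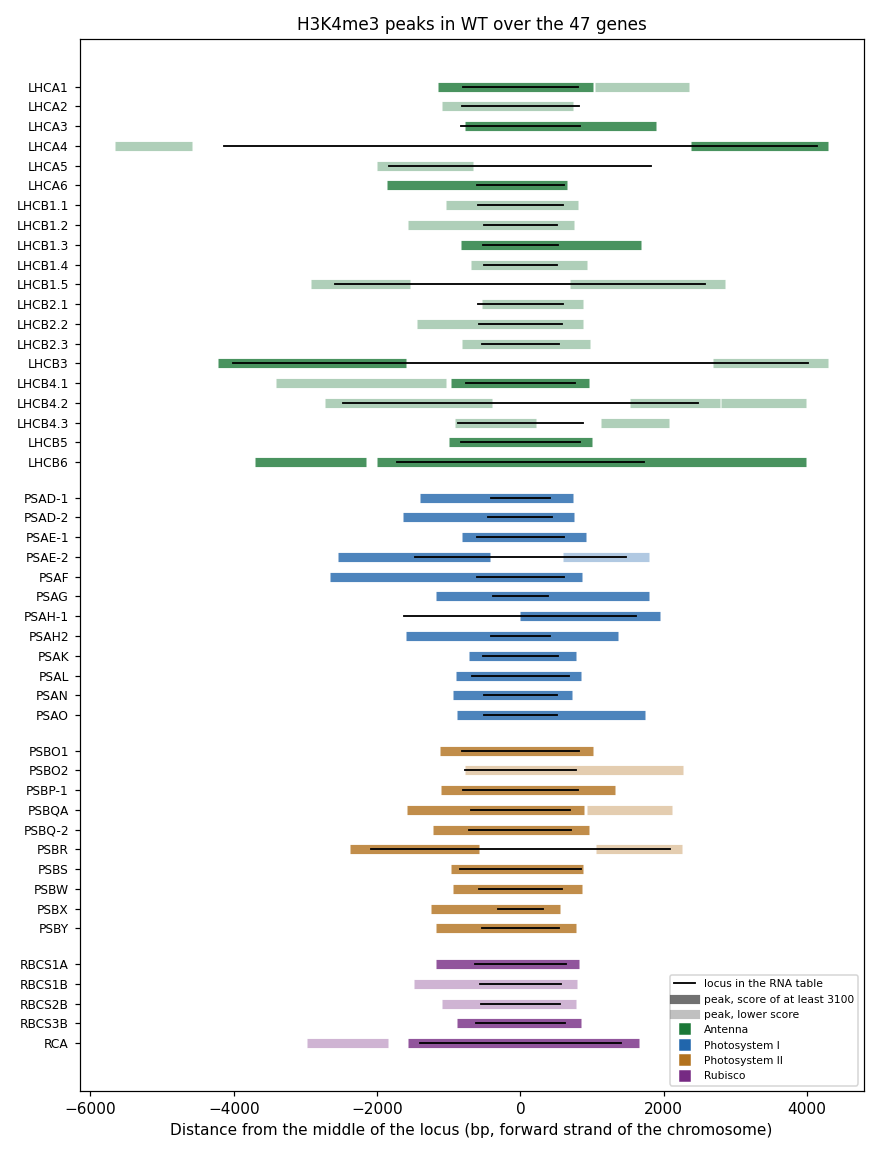
H3K4me3 peaks in WT (coloured bars, paler where the score is under 3100) drawn in bp from the middle of each gene's locus (black line) for the 47 genes by group. Peaks span most loci, pale bars are commonest among the antenna genes (11 of 20), and the long black lines are loci that join a neighbouring gene.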

How the data were processed

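RNA values came from the authors' deposited table, which gives FPKM pooled to 1 value per genotype, a log2 fold change of pold2 over WT, a p-value and a q-value for each gene, per the file headers. The submitters' processing notes name TopHat2 2.1.1, Cuffdiff 2.1.1, Bowtie 0.12.9, Bowtie2 2.0.5 and TAIR10, with no role or order. A Benjamini-Hochberg adjustment of p over 19858 genes gave the deposited q to within 5.28e-07. The smallest q, 0.00103, is shared by 965 genes. No test across libraries could be run, and the authors' q under 0.05 served as the call. Folds and sums were computed from the FPKM with Python 3.11.15 and pandas 2.3.3, with no pseudocount. The peak lists hold a score for each peak, as deposited by the authors, with names that begin with MACS, and the control is not given in the sources used here. A mark was assigned where a peak touched the locus (for H3K4me3, the locus and 500 bp on both sides). Starts are written 1 higher than in the files, which count from 0. The interval overlap, the adjustment and the medians were tested on simulated data.

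All 47 names were found in a RefSeq gene table (TAIR10.1), which supplied no coordinates. The members and lists were chosen with earlier results of these data known. Named genes were every called member, the most expressed uncalled member of each subgroup, and for each list up to 4 called genes or the 2 most expressed; further uncalled members, regulators and neighbours were named after their values were seen. Alternatives were other thresholds, scalings, a pseudocount of 1 FPKM, minimum levels, loci of 1 gene and stricter peak rules. The bisulfite libraries and the pold2 ChIP libraries were not analysed here, and no sequences were used.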

Additional observations from a re-analysis of the deposited data

How the results depend on the processing

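The group medians of the log2 ratio kept their sign under all scalings, the pseudocount and the filters tried. The largest shift came from centring on strongly expressed genes outside the set, some of them photosynthetic. This alternative was chosen after seeing the data. It gave -0.31 for the antenna, -0.24 for photosystem I, -0.17 for photosystem II and 0.20 for Rubisco. Scaling to the total of genes outside the set gave -0.38, -0.31, -0.24 and 0.12. No called gene changed sign under these, while RBCS1A and LHCA6, neither of them called, turned above 0 under both. The 31 genes called lower became 4 with a fold of at least 1.5, a stricter criterion by construction, and ranged from 22 to 36 under the other call rules. The 1 gene called higher, LHCB4.3, became 2 at an unadjusted p under 0.05 (RBCS1B joined it) and 0 with a fold of at least 1.5. The 2 genes under H3K27me3 became 0 with the higher-scoring peaks alone. No paired analysis was possible because the table gives 1 pooled value per genotype, and for the same reason no replicate could be left out. Depth is unknown, and pooling hides the spread between libraries.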
